A study of Mus musculus with 4 samples.

Results

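Klk6 (ENSMUSG00000050063) was 1 gene of 31053 in the deposited count tables, and its row was taken by its symbol. It was followed in oligodendrocyte-like cells, which numbered 5169 of 44360 cells within the cell limits used. Klk6 was selected on measured values, because earlier results on these same counts had shown it high in oligodendrocytes after stroke. Its levels, shares and ratios are therefore given as a description and carry no test. The data were single-cell libraries made from the ipsilateral brain hemisphere of male mice of 8 weeks with the 10x Genomics 3′ assay, which counts unique molecular identifiers (UMIs). Mice had either sham surgery or transient middle cerebral artery occlusion (tMCAO), a model of ischemic stroke with reperfusion, and were taken at day 1, 3 or 7 of reperfusion. The series places the sham library at day 7. All 4 libraries went through papain digestion and a Percoll step that removed floating myelin debris, so the oligodendrocytes measured are those that survived both. There was 1 library per group, so no spread between animals could be measured, and every interval below covers counting error only.

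Klk6 encodes kallikrein-related peptidase 6, a secreted trypsin-like serine protease also called neurosin or myelencephalon-specific protease. In the central nervous system it is made mainly by oligodendrocytes. It is secreted as an inactive precursor, is activated by other proteases including plasmin, and can cleave myelin basic protein and signal through protease-activated receptors. Klk6 transcripts have also served as a marker of 1 subset of mature oligodendrocytes, together with Hopx and Anxa5, while Ptgds and Il33 mark others.

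In the GENCODE vM21 annotation (GRCm38), Klk6 lies on chromosome 7 from 43824499 to 43832030 on the plus strand, inside the kallikrein cluster. It has 4 annotated transcripts of 5 to 7 exons, all protein coding, and no other annotated gene overlaps it. Klk7 ends 8140 bases upstream and Klk5 begins 9941 bases downstream, both on the same strand. Of the 1526 distinct 31-base words in the Klk6 transcripts, 0 occurred in any other gene's transcripts on either strand, so reads of that length could not be shared with another kallikrein. RefSeq places 2 start sites in the gene, and both 300-base windows (250 bases before to 50 after the start, GRCm38.p6, plus strand) are shown because they are the regulatory sequence at which Klk6 transcription begins. They lie at chr7:43824294-43824593 and chr7:43825200-43825499. Capitals mark matches to the GC box (GGGCGG) and to the core of Sox factor motifs (ACAAAG), on either strand.
Klk6 window 1: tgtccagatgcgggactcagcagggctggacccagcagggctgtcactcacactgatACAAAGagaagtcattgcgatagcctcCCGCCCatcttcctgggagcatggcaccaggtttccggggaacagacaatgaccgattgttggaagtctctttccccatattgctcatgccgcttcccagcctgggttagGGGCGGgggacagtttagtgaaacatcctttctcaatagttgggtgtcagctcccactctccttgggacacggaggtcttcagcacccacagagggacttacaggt
Klk6 window 2: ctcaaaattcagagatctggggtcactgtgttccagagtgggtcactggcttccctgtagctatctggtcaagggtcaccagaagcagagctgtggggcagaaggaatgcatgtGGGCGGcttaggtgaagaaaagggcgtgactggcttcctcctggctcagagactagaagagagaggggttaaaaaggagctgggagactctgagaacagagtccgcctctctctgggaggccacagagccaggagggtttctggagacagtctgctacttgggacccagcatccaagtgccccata
The first window held 2 GC boxes and 1 Sox core. The second held 1 GC box. A GC box occurred in 35.7% and a Sox core in 18.7% of all 32851 windows of this length. Neither window held an AP-1 match (TGANTCA) on either strand, a motif in 7.81% of all windows. Letters of the cyclic AMP response element (TGACGTCA, in 1.79% of windows) and of the sites of STAT factors (TTCNNNGAA, in 8.3%) were also not found. A search for the box bound by TBP (TATAAA, in 13.6%) found no match in these windows either.

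Cells with 200 to 3000 detected genes and no more than 10% of UMIs from mitochondrial genes were used first, which are 64.4% to 78.4% of the cells in the files. These limits follow the methods of the study, which state more cells in every library after the same limits, so the cells used here are not exactly those of the study. The reason was not tested. A cell was called oligodendrocyte-like where at least 3 of the 5 markers Mag, Mog, Cldn11, Opalin and Ermn, all genes of mature myelinating cells, had a UMI and their mean log level was the highest among those of 17 marker classes with at least 3 markers detected in the cell. This gave 773 cells in sham, 2324 at day 1, 839 at day 3 and 1233 at day 7, with median depths of 7900, 4922, 6700 and 6292 UMIs. Their leading genes over all other cells included the gate markers Mag, Mog, Cldn11 and Ermn, whose place followed from the gate. Cnp, Mobp, Mbp, Trf and Tubb4a, which the gate did not use, were also among them and fit the label. Between 33 and 88 cell barcodes were shared between any 2 libraries. Of the 624 barcodes with Klk6 in oligodendrocyte-like cells at day 1, 6 also occurred in another library.

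Within these limits Klk6 was at its highest at day 1. Its level was 21 CPM (Klk6 UMIs scaled to the UMI total of the cells) in sham, from 120 UMIs in 48 cells (exact Poisson 95% interval 17.4 to 25.1). At day 1 it was 449 CPM, from 5446 UMIs in 624 cells (437 to 461). At day 3 it was 99.6 CPM, from 537 UMIs in 103 cells (91.3 to 108), and at day 7 it was 22.7 CPM, from 163 UMIs in 68 cells (19.4 to 26.5). The order of the levels was therefore day 1, day 3, then day 7 and sham, and the last pair had overlapping intervals. Relative to sham the level was 21.4-fold at day 1 (17.8 to 25.8), 4.74-fold at day 3 (3.88 to 5.83) and 1.08-fold at day 7 (0.849 to 1.38). The level at day 3 was 0.222 of that at day 1 (0.203 to 0.243).

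These ratios depended strongly on the upper limit of 3000 genes per cell. That limit left out 48.1% of the sham oligodendrocyte-like cells of up to 6000 genes, but 16.7% at day 1, 21.7% at day 3 and 35.5% at day 7. The cells it left out carried most of the Klk6 of sham. Among oligodendrocyte-like cells of up to 6000 genes, cells above 3000 genes held 95% of the Klk6 UMIs in sham, 35% at day 1, 78.4% at day 3 and 87.7% at day 7. With the limit at 6000 genes, Klk6 stood at 156 CPM in sham (150 to 162), 453 at day 1 (443 to 463), 305 at day 3 (293 to 317) and 83.5 at day 7 (79.1 to 88.2). These levels came from 1488, 2790, 1072 and 1911 cells. The ratio to sham became 2.91-fold at day 1 (2.78 to 3.04) and 1.95-fold at day 3 (1.85 to 2.07). At day 7 it turned below 1, at 0.536 (0.501 to 0.574). Leaving out, in addition, cells with 3 or more markers of another class gave ratios of 3.15, 1.89 and 0.543. Day 1 thus stayed above sham under both limits, at 21.4-fold or 2.91-fold, and whether day 7 was level with sham or below it depended on the limit. Day 7 was above sham, at 42.3 against 16 CPM (2.65-fold), where cells of up to 3000 genes were held to a mitochondrial limit of 5%. The difference between day 1 and sham also varied among cells with like numbers of detected genes. At 200 to 1500 genes the level was 117 CPM at day 1 (93.4 to 145) and 140 in sham (74.6 to 240), with overlapping intervals. At 1500 to 2000 genes it was 171 and 45.1 CPM, at 2000 to 2500 genes 587 and 9.88 CPM, and at 2500 to 3000 genes 765 and 19.9 CPM. The last of these bins had shares of 29.1% (24.5 to 34.1) and 1.62% (0.743 to 3.05). At 3000 to 3500 genes the level was 614 CPM at day 1 and 153 in sham, with shares of 27.9% (22 to 34.3) and 8.21% (5.72 to 11.3). At 3500 to 4000 genes it was 446 CPM (415 to 477) and 420 (393 to 449), with shares of 19.7% (13.3 to 27.5) and 19.9% (13.9 to 27), so no excess at day 1 was detectable in those cells. At 4000 to 6000 genes it was 307 CPM (285 to 332) and 222 (206 to 239), with intervals apart, while the intervals of the shares overlapped.

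**Figure D1:**
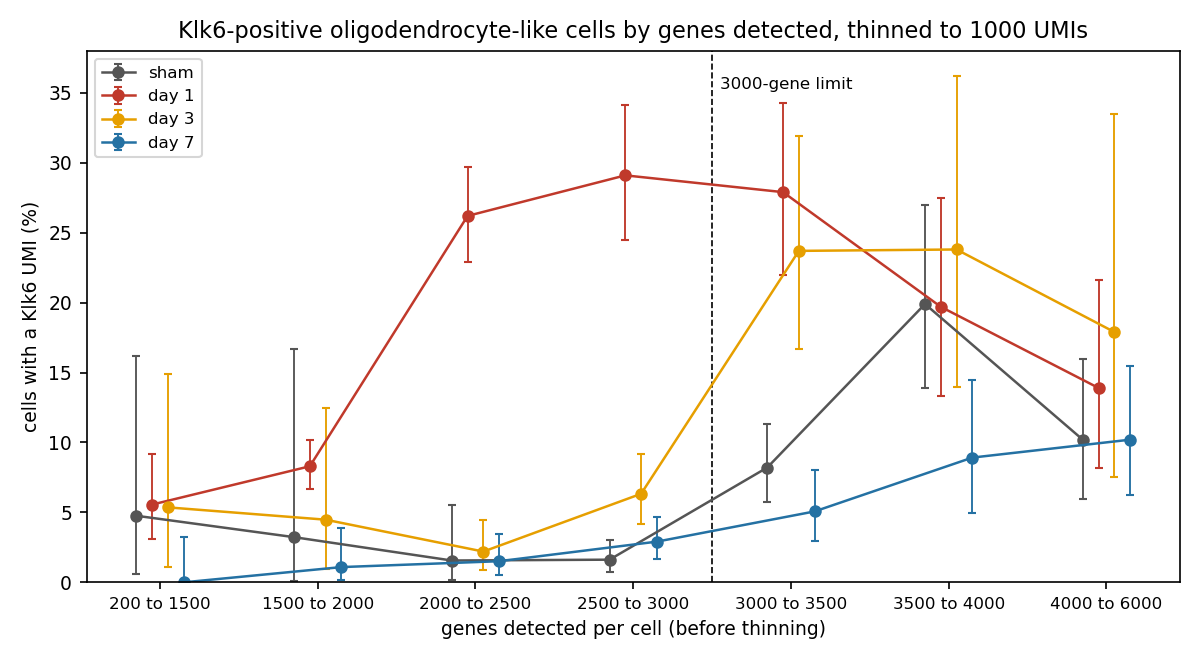
Share of oligodendrocyte-like cells with a Klk6 UMI (vertical axis, percent, each cell thinned to 1000 UMIs) by the number of genes detected in the cell before thinning (horizontal axis), per library, with exact 95% binomial intervals. In sham the share was 1.62% at 2500 to 3000 genes and 19.9% at 3500 to 4000 genes, so the 3000-gene limit (dashed line) fell below most sham cells that held Klk6, while at day 1 the share was 26.2% at 2000 to 2500 genes and 19.7% at 3500 to 4000 genes.

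The share of cells with Klk6 was compared after 1000 UMIs had been drawn at random from every cell, since deeper cells show a rare transcript more often. Under the 3000-gene limit 11 of 757 sham cells held a Klk6 UMI, or 1.45% (Clopper-Pearson 95% interval 0.728 to 2.59). The share was 15.9% at day 1 (368 of 2320 cells, 14.4 to 17.4), 4.43% at day 3 (37 of 836, 3.14 to 6.05) and 1.87% at day 7 (22 of 1177, 1.18 to 2.82). Without thinning the shares were 6.21%, 26.9%, 12.3% and 5.52%. With the limit at 6000 genes the thinned shares were 6.39% in sham (94 of 1472, 5.19 to 7.76), 17.4% at day 1 (486 of 2786, 16.1 to 18.9), 8.51% at day 3 (91 of 1069, 6.91 to 10.3) and 3.94% at day 7 (73 of 1855, 3.1 to 4.92). Day 1 was above the other 3 libraries beyond the counting intervals under both limits. A strict gate left out every cell holding a marker of another class. The excess of day 1 was then not seen in the shares (7.14% of 28 sham cells and 6.99% of 143 at day 1). These are too few cells to order the 2 libraries. The ratio of the levels was 5.54. The sham and day 3 intervals were apart under the 3000-gene limit and overlapped under the 6000-gene limit. Sham and day 7 overlapped under the former and were apart under the latter.

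Cells with several Klk6 UMIs were also more frequent at day 1 than in sham. Under the 6000-gene limit, 9.19% of the thinned cells at day 1 held 2 or more Klk6 UMIs (8.14 to 10.3), against 3.46% in sham (2.59 to 4.53), 4.77% at day 3 (3.57 to 6.23) and 1.24% at day 7 (0.788 to 1.85). The intervals of sham and day 3 overlapped at 2 or more and at 3 or more UMIs, and were apart at 5 or more only under this limit. There, 1.94% of the thinned cells at day 1 (54 of 2786) and 1.87% at day 3 (20 of 1069) held 5 or more Klk6 UMIs, against 0.34% in sham (5 of 1472). At day 7 no cell of 1855 reached 5, which bounds the share at 0.199%. The highest count in any 1 cell before thinning was 85 UMIs in sham, 90 at day 1, 154 at day 3 and 71 at day 7. Klk6 was concentrated in few cells in every library. Within the 3000-gene limit the 10% of cells richest in Klk6 held 77.8% of its UMIs at day 1 and 96.5% at day 3. In sham and at day 7 fewer than 10% of the cells had a Klk6 UMI at all.

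**Figure D2:**
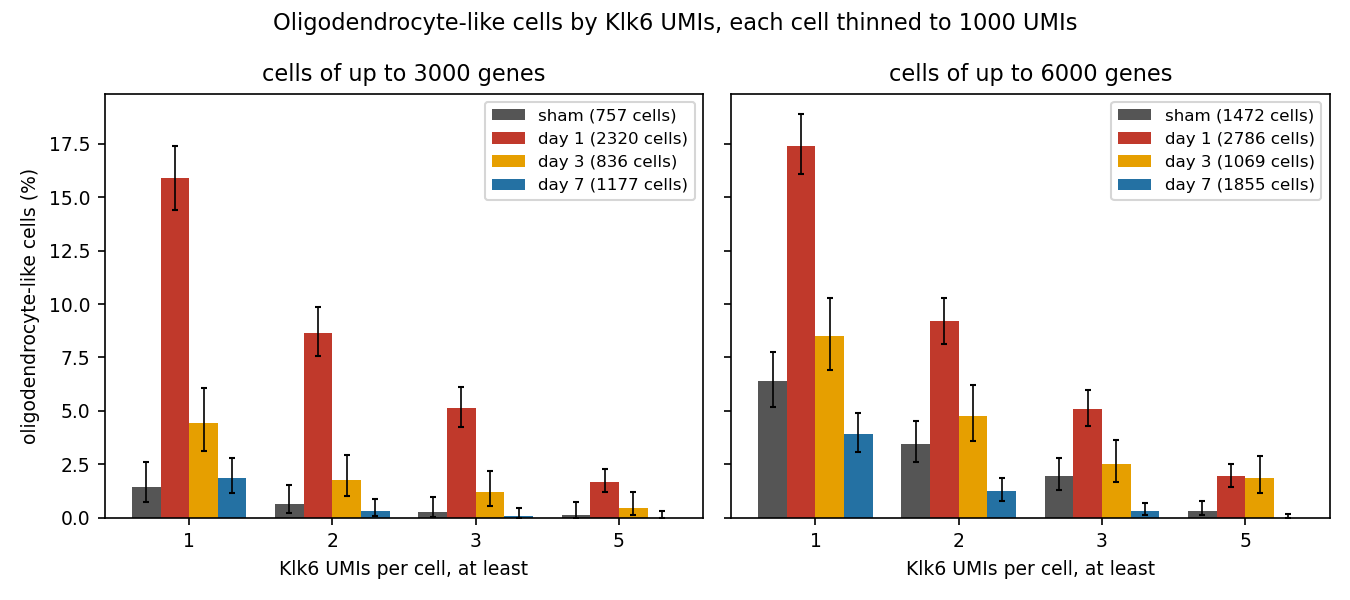
Percent of oligodendrocyte-like cells (vertical axis) with at least 1, 2, 3 or 5 Klk6 UMIs after thinning to 1000 UMIs, per library, under the 3000-gene limit (left) and the 6000-gene limit (right), with exact 95% binomial intervals as error bars. Day 1 had the tallest bar at 1 UMI under both limits (15.9% and 17.4%), and the sham bar at 1 UMI rose from 1.45% to 6.39% with the wider limit.

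Up to 6000 genes, cells with Klk6 were richer in RNA than the other oligodendrocyte-like cells of their library, with Klk6 read after all had been thinned to the same depth. Under this limit the median depth before thinning was 12381 UMIs in Klk6-positive and 9278 in Klk6-negative sham cells. It was 6468 against 5075 at day 1, 9808 against 7056 at day 3 and 10368 against 7696 at day 7. Under the 3000-gene limit the order was the other way in sham (7395 in 11 positive against 7930 in negative cells) and the same at day 1 (5866 against 4756), day 3 (7187 against 6685) and day 7 (6746 against 6416). With the cells of up to 6000 genes of a library split by depth into 4 equal groups, the deepest group had a share of 13.9% in sham, 22.5% at day 1, 22.8% at day 3 and 8.62% at day 7. The shallowest group had 2.45%, 7.6%, 4.12% and 1.08%. The rise was not steady, since at day 1 the share was highest in the group below the deepest (28.4%, 25.1 to 32) and at day 3 lowest in the group above the shallowest (2.25%). Positive cells of up to 6000 genes had a lower median mitochondrial share in all 4 libraries (3.16% to 4.30% against 3.82% to 5.43%), while under the 3000-gene limit it was higher in positive sham cells (6.80% against 4.95%). At 3 or more markers of another class, a sign of 2 cells in 1 droplet, 13.7% to 19.8% of positive and 14.1% to 17.9% of negative cells of up to 6000 genes were counted. Under the 3000-gene limit these cells were more frequent among positive cells at day 3 (21.6% against 8.14%) and day 7 (22.7% against 9.96%), but not at day 1 (9.78% against 12.2%) or in sham (0 of 11 cells against 6.7%). Up to 6000 genes, the summed markers of 14 of the 16 other classes were higher in positive cells in at most 2 of 4 libraries. The exceptions were the neuron list, higher in all 4 (287 to 726 CPM against 155 to 421), and the fibroblast list, higher in 3 (11 to 31.9 CPM against 5.05 to 20.4). Of the 7 neuron markers, 2 had a UMI in positive cells in sham, 7 at day 1, 3 at day 3 and only Tubb3 at day 7. The fibroblast list rested on 3, 8 and 1 UMIs in positive cells of sham, day 1 and day 7. The part of these lists in the Klk6 result was not tested. With cells of 3 or more markers of another class left out, the share up to 6000 genes was 16.8% at day 1 and 7.36% in sham. Up to 6000 genes, haemoglobin transcripts were lower in positive than in negative cells in sham (160 against 1356 CPM), at day 3 (396 against 2240) and at day 7 (13.7 against 466). At day 1 they were at 214 against 205 CPM. Under the 3000-gene limit they were at 273 against 2472 CPM in sham and 13.6 against 291 at day 1. There they were at 2324 against 2667 CPM at day 3 and 0 against 636 at day 7. Within the 3000-gene limit they also differed between libraries, at 4111, 299, 2888 and 859 CPM in oligodendrocyte-like cells of sham, day 1, day 3 and day 7, and their part was not tested.

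Among the other classes Klk6 was near 0. Oligodendrocyte-like cells held 80.5% of all Klk6 UMIs in the sham cells kept, 96.6% at day 1, 85.8% at day 3 and 75.1% at day 7, although they were 8.78% to 17.4% of the cells. Endothelial-like cells, the largest other class, stood at 1.4 CPM in sham, 5.96 at day 1, 4.05 at day 3 and 1.74 at day 7. After stroke most of those UMIs lay in a few barcodes that also held 3 or more oligodendrocyte markers. At day 1, 93 of 6974 endothelial-like cells did so, and these held 86 of the 109 UMIs. In sham 16 of 4801 cells did so, and these held 2 of the 23 UMIs. In endothelial-like cells with fewer than 3 oligodendrocyte markers the level was 1.28, 1.3, 1.17 and 0.685 CPM, which was taken as the background of free RNA. At 1000 UMIs per cell their share with a Klk6 UMI was 0.0917% to 0.119%, at median depths of 1916 to 2946 UMIs, and the oligodendrocyte-like shares lay above it in every library. Subtracting this level left the ratios to sham at 22.7, 4.99 and 1.12.

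Of the cells with fewer than 3 oligodendrocyte markers in other classes of at least 50 cells, no class exceeded 3.52 CPM in any library. Pericyte-like and smooth muscle-like cells did not exceed 1.34 CPM. Oligodendrocyte progenitor-like cells, the precursors of the lineage, held 1 Klk6 UMI in 209 cells at day 1 (1.54 CPM, 0.0389 to 8.56). Astrocyte-like cells held 0 UMIs in every library, which bounds their level at 4.3 to 17.6 CPM (the level of 3 UMIs). Microglia-like cells held 2 UMIs at day 1 (0.876 CPM) and 0 elsewhere. The 28 UMIs in 1 monocyte-like cell of 17 at day 1 fell in a class of under 50 cells, and that cell held 3 or more oligodendrocyte markers.

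**Figure D3:**
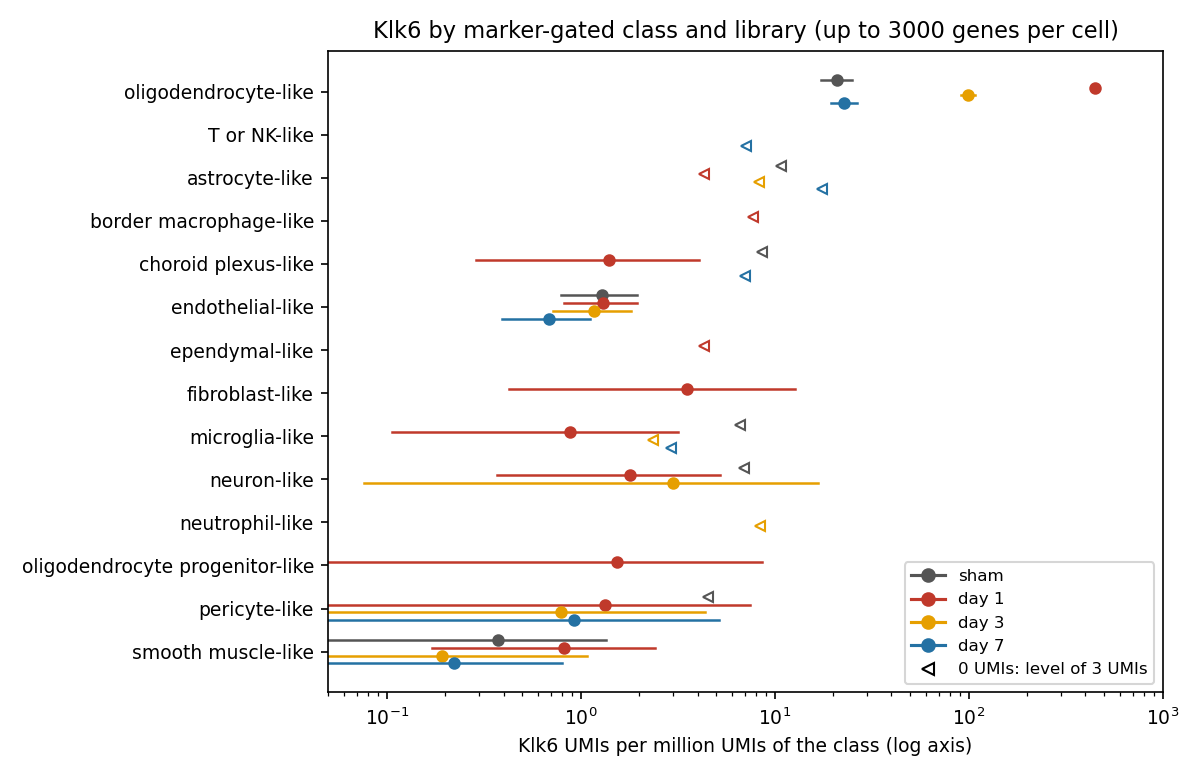
Klk6 level in CPM (horizontal log axis) in each marker-gated class of at least 50 cells, per library, under the 3000-gene limit. Points carry exact 95% Poisson intervals, open triangles mark classes with 0 UMIs at the level of 3 UMIs, and cells of other classes with 3 or more oligodendrocyte markers are left out. Oligodendrocyte-like cells lie at 21 to 449 CPM and no other class exceeds 3.52 CPM.

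Klk6 was set against all genes that oligodendrocyte-like cells expressed at 50 CPM or more in either library and that no other class of at least 50 cells held at over 5 times that level in the library where the gene was higher. At day 1, 39 of 2943 genes (1.33%) were at least 2-fold above sham, and 25 (0.849%) at least 2-fold below. Klk6 had rank 3 by log2 ratio with 10 CPM added (3.89). Serpina3n, a secreted inhibitor of serine proteases, was the first (5.24, from 1.75 to 433 CPM) and the complement gene C4b the second (4.31, from 5.78 to 303 CPM). Hspa1b (heat shock protein 70, 3.51) and Cdkn1a (the cell cycle inhibitor p21, 3.51) followed. The lowest ratios were those of Gm42418, which overlaps ribosomal RNA (-2.99), C030029H02Rik (-2.18), Lars2 (-2.16), Wfdc18 (-2.02) and the histone gene Hist1h1e (-1.72). At day 3, 5 of 2958 genes (0.169%) were 2-fold higher and 4 (0.135%) lower, and Klk6 had rank 2 (1.82), after C4b (3.23). Dpysl2 (1.09) and the choroid plexus transcript Ttr (1.01) were also among the 5. Choroid plexus-like cells numbered 27 at day 3, under the 50 that the rule asks for, so that class could not take Ttr out. Gm42418 (-2.61), Lars2 (-1.95), Hist1h1e (-1.52), Jph4 (-1.01) and C030029H02Rik (-0.90) had the lowest ratios, the last of these within 2-fold. At day 7, 58 of 3166 genes (1.83%) were 2-fold higher and 13 (0.411%) lower. The highest were Cdkn1a (2.46), the lipid droplet gene Plin4 (2.26), Ogdhl (2.20), C4b (2.20) and the glucocorticoid-responsive kinase Sgk1 (1.94). Klk6 was below 50 CPM in both of those libraries. Gm47283 (-2.24), Fabp5 (-1.43), Gm42418 (-1.33), Cryab (-1.19) and Itih3 (-1.17) were lowest at day 7.

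The 6000-gene limit moved Klk6 among these genes more than the 4 genes beside it at day 1. Klk6 ranked 16 of 2978 at day 1 (log2 ratio 1.48, where 1.14% of genes were 2-fold higher and 0.873% lower) and 10 of 2994 at day 3 (0.92, within 2-fold, where 0.2% were 2-fold higher and 0.134% lower). At day 7 it ranked 3197 of 3226 (-0.83, lower but within 2-fold, where 0.31% were 2-fold lower and 1.49% higher). Serpina3n changed from 5.24 to 5.18 at day 1, C4b from 4.31 to 4.12, Hspa1b from 3.51 to 3.21 and Cdkn1a from 3.51 to 2.94.

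**Figure D4:**
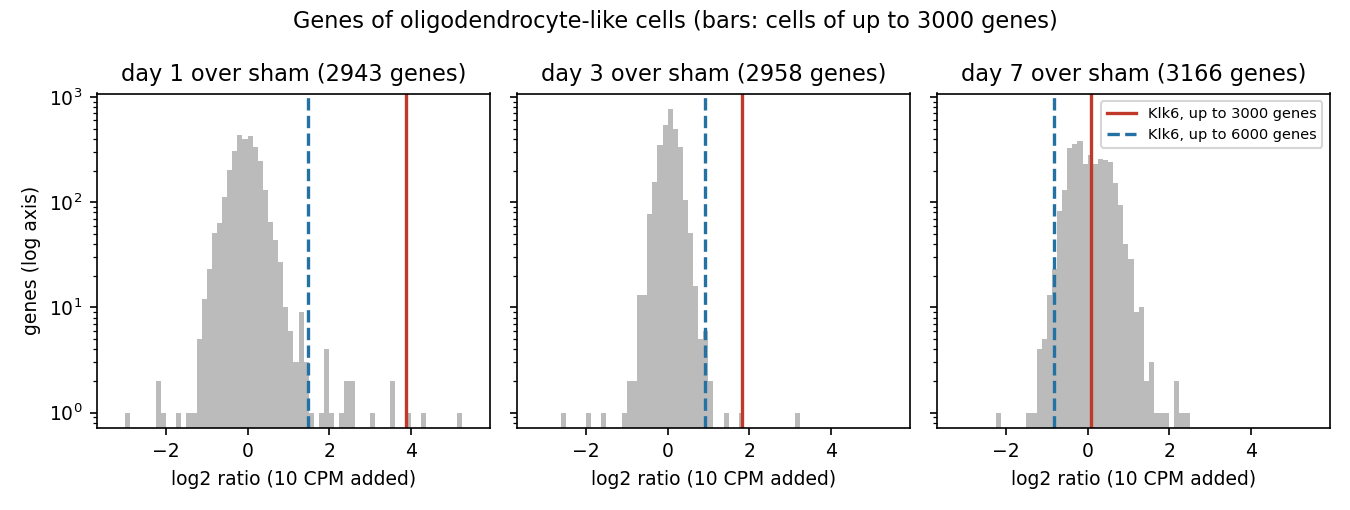
Number of genes (vertical log axis) by log2 ratio of oligodendrocyte-like cells over sham with 10 CPM added (horizontal axis), for day 1, day 3 and day 7, in cells of up to 3000 genes. The solid line marks Klk6 in the same cells (3.89, 1.82 and 0.08) and the dashed line Klk6 in cells of up to 6000 genes (1.48, 0.92 and -0.83).

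Klk6-positive and Klk6-negative thinned cells were compared at day 1, 3 and 7, the libraries with at least 20 positive cells under the 3000-gene limit. Of 2540 genes with at least 50 UMIs in each library, 398 (15.7%) were higher in positive cells in all 3 and 379 (14.9%) lower in all 3. These counts ask only for the same side of 1 in each library, and nothing is read from them. The 10 with the highest lowest ratio were S100b, Apod, Enpp6, Mgst3, Ldhb, Plpp2, Trf, Slco3a1, Pmp22 and Acat1. S100b, a calcium-binding protein of glia, was 5.1-fold higher at day 1 (72 UMIs in positive and 75 in negative cells), 13.6-fold at day 3 and 19.3-fold at day 7. Apod, a secreted lipid carrier of mature oligodendrocytes, was 3.19-fold, 4.54-fold and 3.72-fold higher. Enpp6, a choline phosphodiesterase that is high in newly formed oligodendrocytes, was 2.97-fold, 8-fold and 6.14-fold higher. Trf (transferrin), Pmp22 (a membrane protein of compact peripheral myelin), Mgst3 (a glutathione transferase) and Ldhb (a lactate dehydrogenase subunit) had lowest ratios of 1.95, 1.92, 2.68 and 2.4. Plpp2, the transporter Slco3a1 and the mitochondrial thiolase Acat1 had 1.96, 1.94 and 1.9, and the intervals of Plpp2 at day 3 and of Acat1 at day 3 and day 7 included 1.

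Ptgds, the prostaglandin D2 synthase that marks other mature oligodendrocytes, showed the opposite pattern at the best precision. It was at 0.114 to 0.243 of its level in negative cells. The 4 other genes at the low end were Jph4 (a junctophilin, at most 0.203), Ttyh1 (a chloride channel protein, at most 0.326) and the transcripts A230009B12Rik (0.328) and C030029H02Rik (0.384). Jph4 and Ttyh1 had 0 UMIs in the positive cells at day 3 and day 7, where the intervals reached 1.05 and 1.76 for Jph4 and 0.774 and 1.33 for Ttyh1. The interval of A230009B12Rik also included 1 at day 3 (0.00712 to 1.64) and at day 7 (0 to 2.51), and that of C030029H02Rik at day 7 (0.0462 to 1.4). Under the 6000-gene limit Jph4 was at 0.499, 0.479, 0.327 and 0.407 in sham, day 1, day 3 and day 7. Over single cells without thinning, the correlation with Klk6 was highest for Trf at day 1 (r = 0.58 over 2324 cells), for Apod at day 3 (0.43 over 839) and for S100b at day 7 (0.53 over 1233). It was -0.64, -0.47 and -0.52 for Ptgds. These cells share their library and differ in depth, so the correlations are a description.

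Sham had only 11 positive cells under the 3000-gene limit and played no part in choosing these 15 genes. Under the 6000-gene limit it had 94, and the same direction was found there for all 10 genes of the high end and all 5 of the low end. The share of all genes on either side of 1 in sham alone is not given here, so nothing is read from that count. The wider limit was looked at after the ranking had been seen. S100b was 11.7-fold higher in the positive sham cells (9.41 to 14.4), Mgst3 6.15-fold (3.91 to 9.48), Ldhb 4.74-fold (3.25 to 6.79), Slco3a1 4.31-fold (2.91 to 6.27) and Enpp6 3.94-fold (2.6 to 5.83). Ptgds stood at 0.059 of the negative cells (0.0483 to 0.0714). The intervals of Acat1 (0.811 to 2.94) and A230009B12Rik (0.0412 to 1.29) included 1 in sham. Under this limit 414 of 3178 genes (13%) were higher in positive cells in all 4 libraries and 338 (10.6%) lower. Acat1 was the 1 gene of the 10 that was not higher in every library (0.691 at day 3 and 1 at day 7), and all 5 genes at the low end were lower in every library.

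**Figure D5:**
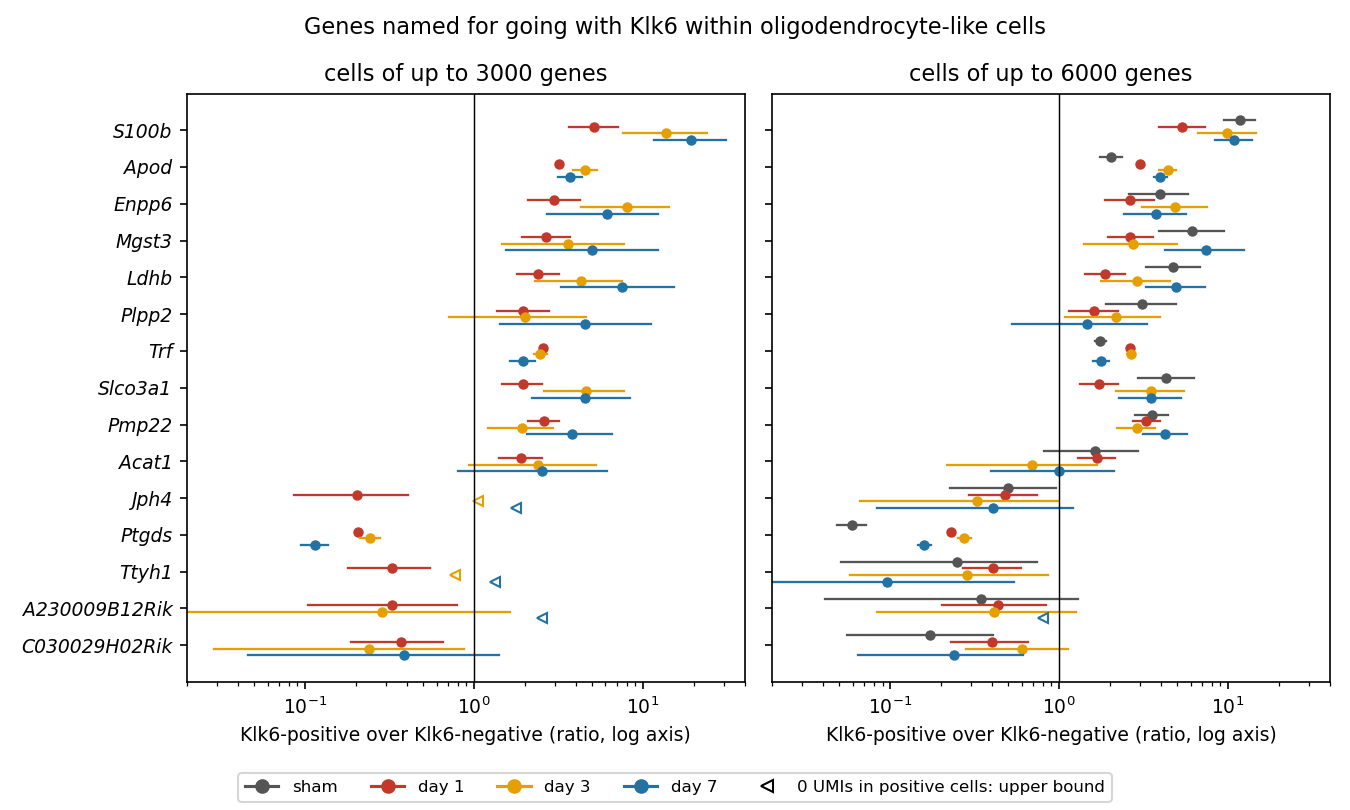
Ratio of the level in Klk6-positive over Klk6-negative thinned oligodendrocyte-like cells (horizontal log axis) for the 10 genes highest and the 5 lowest by the rule, per library, with exact 95% intervals, in cells of up to 3000 genes (left) and up to 6000 genes (right). Sham, which was not used to choose the genes, appears on the right, with S100b at 11.7 and Ptgds at 0.059.

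Hopx, a homeodomain-only cofactor, and Anxa5 (annexin A5), both published as marking the Klk6 subset, had intervals above 1 in all 4 libraries under the 6000-gene limit. Hopx was 15.8-fold higher in positive sham cells and 6.95-fold at day 1, and Anxa5 was 6.43-fold and 4.07-fold higher. Of the 5 genes published for other mature subsets, Ptgds was below 1 in all 4 libraries and Apod above 1 in all 4. Il33 ranged from 0.174 to 1.2, Grm3 from 0.367 to 0.866 and Car2 from 0.916 to 1.18. Of the 5 genes of newly formed oligodendrocytes with enough UMIs, Enpp6 was above 1 in all 4, whereas Bcas1 (0.691 to 1.05), Tcf7l2 (0.194 to 0.949), Itpr2 and Gpr17 had no interval apart from 1. Of the 8 myelin genes outside the gate, Mal (0.481 to 0.696), Qdpr (0.479 to 0.764) and Tspan2 (0.396 to 0.731) were below 1 in all 4 libraries. Mbp, which codes for myelin basic protein, ranged from 0.89 to 1.11. Of the gate markers, Opalin was below 1 in all 4 libraries (0.198, 0.72, 0.625 and 0.0871 in sham, day 1, day 3 and day 7). Of the other gate markers, Ermn (1.18 to 1.5) and Mag (1.05 to 1.32) were above 1 in all 4, Cldn11 was at 0.8, 1.23, 1.51 and 0.866, and Mog was at 0.987, 0.99, 1.15 and 1.1.

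Over the days, none of the 8 myelin genes outside the gate was past 2-fold of sham under the 3000-gene limit. Of all genes compared, 1.33%, 0.169% and 1.83% were 2-fold higher at day 1, day 3 and day 7, and 0.849%, 0.135% and 0.411% lower. A count of 0 among 8 genes is near those shares, and nothing is read from it. The medians of the 8 were -0.24, -0.03 and 0.11 on the log2 scale beside -0.05, 0.05 and 0.01 for all genes compared. Hopx was at 13, 118, 33 and 28.3 CPM in sham, day 1, day 3 and day 7 under the 3000-gene limit. There it was highest at day 1, like Klk6. Anxa5 was at 47.4, 47.5, 58.1 and 33.7 CPM under that limit. Within Klk6-positive cells alone, the library with the most Hopx differed between the limits. In thinned Klk6-positive cells of up to 3000 genes it was at 182 (from 2 UMIs), 411, 298 and 228 CPM, highest at day 1. In thinned Klk6-positive cells of up to 6000 genes Hopx was at 608, 390, 154 and 343 CPM, highest in sham. In the Klk6-negative cells it was at 38.5, 56.1, 20.4 and 38.2 CPM, highest at day 1. Under the 3000-gene limit Apod (1033, 6325, 1211 and 2071 CPM) and Ptgds (21329, 58327, 21724 and 49097 CPM) were both highest at day 1. They nevertheless differed in opposite directions between Klk6-positive and Klk6-negative cells. Over the 36 class-and-library sums of at least 50 cells, the 5 genes most like Klk6 by Pearson's r of log2(CPM + 10) included Itgad (0.91), Fam83d (0.89), Hapln2 (0.88) and Tnni1 (0.86). Itgad, an integrin alpha subunit, was at 20.8, 160, 30.4 and 88.2 CPM in oligodendrocyte-like cells of sham, day 1, day 3 and day 7. Hapln2, a matrix protein of nodes of Ranvier, was at 399, 570, 449 and 394 CPM. These sums share libraries and depth, and none of the 5 genes exceeded 12.8 CPM in another class.

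Of the 5 genes published as injury-associated in oligodendrocytes, Serpina3n and C4b were higher in Klk6-positive cells in every library that gave at least 20 UMIs. Under the 6000-gene limit Serpina3n was 5.67-fold higher in positive cells at day 1 (5.01 to 6.41), 27.9-fold at day 3 (17.7 to 45.3) and 4.89-fold at day 7 (1.22 to 14.6). C4b was 1.64-fold, 3.76-fold and 3.2-fold higher. Neither reached 20 UMIs in sham. H2-D1, a class I histocompatibility gene, was 2.38-fold higher at day 3 (1.8 to 3.1) and 0.576-fold in sham (0.154 to 1.52), with 1.33 at day 1 (1.03 to 1.69) and 0.671 at day 7 (0.267 to 1.4). H2-K1, another class I gene, was above 1 in sham (2.49, 1.14 to 4.91), and its ratios were 1.05, 1.44 and 0.309 at day 1, day 3 and day 7, with intervals that included 1. Under the 3000-gene limit B2m was at 1.76 at day 1 (1.16 to 2.59). Under the 6000-gene limit it was at 0.73 at day 1 (0.472 to 1.09) and ranged from 0.73 to 1.58, with no interval apart from 1. Of the immediate-early genes, Jun had intervals above 1 in 3 libraries (1.57-fold in sham), and Fos and Dusp1 had intervals below 1 in 3 and Fosb in 2. Junb went both ways, at 1.8 at day 1 (1.58 to 2.04) and 0.478 at day 3 (0.215 to 0.925). Btg2, Egr1 and Ier2 had no interval apart from 1. Of the stress genes, Sgk1 was at 0.593 to 0.813, with intervals below 1 in 3 libraries. Gadd45b (2.01, 1.56 to 2.58), Ddit3 (1.64, 1.09 to 2.42) and Atf3 (1.6, 1.17 to 2.17) were above 1 at day 1, and none of the 3 had an interval apart from 1 elsewhere. Cdkn1a had no interval apart from 1 under this limit, but was at 1.36 at day 1 (1.08 to 1.71) and 12.4 at day 3 (2.65 to 48.6, 4 and 7 UMIs) under the 3000-gene limit. Over the days, 2 of the 3 stress genes compared were past 2-fold at day 1 (Cdkn1a and Sgk1), 0 of 2 at day 3 and 2 of 3 at day 7, all higher, beside 1.33%, 0.169% and 1.83% of all genes compared. Of the immediate-early genes, 0 of 5 were past 2-fold at day 1, 0 of 1 at day 3 and 1 of 2 at day 7 (Fosb, 1.15, higher), beside the same shares of all genes for higher and 0.849%, 0.135% and 0.411% for lower.

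Of the 25 other tissue kallikrein genes, 14 had a UMI in the cells kept and 6 in oligodendrocyte-like cells, and none reached 50 CPM there. Those with at least 20 UMIs there in a library were Klk8 (neuropsin) and Klk9, neighbours of Klk6 that lie 20673 and 27742 bases upstream. At day 1, under the 6000-gene limit, 544 of the 557 Klk8 UMIs and 171 of the 174 Klk9 UMIs of oligodendrocyte-like cells were in the 802 cells with a Klk6 UMI. At day 3 this held for 134 of 137 Klk8 UMIs and 17 of 18 Klk9 UMIs, in 196 cells with Klk6. In sham it held for 2 of 6 Klk8 UMIs and 7 of 10 Klk9 UMIs, in 254 cells with Klk6. At day 7 it held for 4 of 15 Klk8 UMIs and 2 of 5 Klk9 UMIs, in 214 cells with Klk6. Per 100 Klk6 UMIs in those cells there were 0.0836 Klk8 UMIs in sham (0.0101 to 0.302), 6.49 at day 1 (5.94 to 7.08), 5.38 at day 3 (4.49 to 6.4) and 0.301 at day 7 (0.082 to 0.774). For Klk9 the values were 0.293 in sham (0.118 to 0.604), 2.04 at day 1 (1.74 to 2.37), 0.683 at day 3 and 0.151 at day 7. The Klk8 UMIs came from 97 cells at day 1, with 63 of them in 1 cell, and from 14 cells at day 3, with 27 in 1 cell, so the intervals are narrower than the spread over cells. Under the 3000-gene limit oligodendrocyte-like cells held 193 Klk8 UMIs at day 1, 11 at day 3, 5 at day 7 and 0 in sham. This contrast was chosen after its values were seen. Klk8 was not particular to these cells, since T or NK-like cells reached 160 CPM at day 7. Klk10, 39089 bases upstream, had 11 UMIs in those cells at day 1 and 3 in sham.

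Of the genes of the protease's partners, Plg, the gene of plasminogen, had 1 UMI in all cells kept, and F2 (prothrombin) had 4 to 10 UMIs per library. Plat (tissue plasminogen activator) was at 22.4 to 35.3 CPM in oligodendrocyte-like cells and reached 762 CPM in pericyte-like cells at day 1. Plaur, the urokinase receptor, reached 850 CPM in neutrophil-like cells at day 3 and was at most 3.54 CPM in oligodendrocyte-like cells. Of the 4 protease-activated receptors, F2r had 1 to 13 UMIs in oligodendrocyte-like cells and 142 CPM in pericyte-like cells at day 7, and F2rl1, F2rl2 and F2rl3 had at most 1 UMI in the oligodendrocyte-like cells of any library. Of the 8 listed inhibitors of serine proteases, a list without Serpina3n (1.75 CPM in sham and 433 at day 1), Serpinb1a was the only 1 compared in oligodendrocyte-like cells, at 355 CPM in sham, 126 at day 1, 294 at day 3 and 248 at day 7. At day 1 it was 2-fold lower (log2 ratio -1.43), as were 0.849% of genes. It was also higher in Klk6-positive cells, by 1.4-fold to 2.06-fold, with intervals above 1 in 3 of 4 libraries. Serpine2 (protease nexin-1) peaked in oligodendrocyte progenitor-like cells at day 1 (1319 CPM) and Spint2 in choroid plexus-like cells (1264 CPM). Among the genes of proteins that Klk6 cleaves in vitro, Mbp stayed at 3997 to 4719 CPM in oligodendrocyte-like cells and App at 1409 to 2185 CPM. Fn1 (fibronectin) was at 3.85 to 24 CPM, with no ratio to sham compared.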

How the data were processed

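The deposited values were raw UMI counts, 1 matrix for each of 4 libraries of the 10x Genomics 3′ assay, made by the authors. The labels name Cell Ranger 3.0.1, Seurat 4.1.2 and GRCh38, while the file headers name Cell Ranger 4.0.0 and the gene identifiers are those of mouse. Klk6, the gene lists and the gate were chosen with earlier results of these data known. Cells with 200 to 3000 detected genes and up to 10% of UMIs from mitochondrial genes were classed by their marker UMIs. Counts were summed per class and library, scaled to the UMI total (CPM), with exact Poisson, Clopper-Pearson or conditional binomial 95% intervals that cover counting error only. Shares were read after thinning to 1000 UMIs. With 1 library per group no test was run. Ratios of Klk6 levels had nothing added. The log2 ratios that ranked genes and the 2-fold rule had 10 CPM added to both libraries, and that rule was tested on simulated data. Named genes were the 5 highest and 5 lowest ratios per day, the 10 highest and 5 lowest genes between Klk6-positive and Klk6-negative cells, the 5 most like Klk6, and list members. Doublets were kept, because Scrublet (scanpy 1.11.5) marked 4.61% of cells at day 1 but 0.225% or fewer in the other libraries. Whether it had worked there was not tested. Alternatives covered the gene and mitochondrial limits, doublets, clusters, a stricter gate, thinning depth, background and the thresholds. Python 3.11.15, numpy 2.4.6 and scipy 1.17.1 were used. Some genes that these rules name are not reported here.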

Additional observations from a re-analysis of the deposited data

Results flagged for a closer look

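Oligodendrocyte-like cells outside the limits of 200 to 3000 genes and 10% mitochondrial UMIs, which the main levels do not use, held Klk6 above the sham level of the same kind of cells at day 1 and day 3, and below it at day 7. They stood at 471 CPM at day 1 (454 to 488, 546 cells) and at 682 CPM at day 3 (652 to 713, 282 cells), against 229 CPM in sham (220 to 238, 882 cells) and 133 CPM at day 7 (126 to 140, 852 cells). Most of these cells had over 3000 genes, 470 at day 1, 233 at day 3, 725 in sham and 683 at day 7. Within the limits the level was higher at day 1 than at day 3, and outside them it was higher at day 3.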

How the results depend on the processing

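Of 125 alternative values, 68 stayed within their interval or within 1.5 times a count and 57 moved. Leaving out called doublets removed none of the oligodendrocyte-like cells at day 3 or day 7. Their levels and shares could therefore not move under it, although they are counted among the 68. With 6000 genes the levels were 156, 453, 305 and 83.5 CPM in sham, day 1, day 3 and day 7, the shares 6.39, 17.4, 8.51 and 3.94%, and the ratios to sham 2.91, 1.95 and 0.536. With cells of 3 or more markers of another class also left out, which was chosen after seeing the data, the levels were 157, 495, 298 and 85.3 CPM, the shares 7.36, 16.8, 8.23 and 4.06%, and the ratios 3.15, 1.89 and 0.543. Leaving out only those cells gave 467 CPM at day 1 and a share of 1.14% at day 7. With a mitochondrial limit of 5% the levels were 16, 499, 89.5 and 42.3 CPM, the day 1 share 18.3%, and the ratios 31.3 at day 1 and 2.65 at day 7. Without called doublets day 1 was at 472 CPM, and with clusters in place of the gate day 7 was at 26.7 CPM. A strict gate without any marker of another class kept 29, 145, 29 and 91 cells, with levels of 25.6, 142, 116 and 4.93 CPM. Its shares were 7.14, 6.99, 0 and 0%, and its ratios 5.54 at day 1 and 0.192 at day 7. The shares of sham and day 1, from 28 and 143 thinned cells, were too close on so few cells to be ordered. At 500 UMIs the shares were 11.1% at day 1 and 1.05% at day 7, at 2000 UMIs 3.16, 20.7, 8.35 and 3.36%, and without thinning 6.21, 26.9, 12.3 and 5.52%. With at least 20 UMIs per gene, 696 genes were above 1 and 752 below 1 in every library, and by correlation over cells 666 were above. At 2000 UMIs per cell, over 4 libraries, 8 of the 10 genes of the high end and 4 of the 5 of the low end kept their side of 1. The 10 highest genes there shared 6 with the main 10. They shared 6 up to 6000 genes, 5 with at least 20 UMIs per gene and 7 by correlation. With 1 CPM added, 41 genes were 2-fold lower at day 1, 10 higher at day 3 and 93 higher at day 7. The day 1 ratio stayed above 1 in all 9 of its alternatives and the day 3 ratio in all 9 of its own, while the day 7 ratio lay between 0.192 and 2.65. The cause of these shifts was not tested. No paired analysis was possible because each group had 1 library. Under the 3000-gene limit the thinned share in sham rests on 11 positive cells, and its interval overlapped that of day 7. Under the 6000-gene limit it rests on 94, and the intervals were apart.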
